A study of Mus musculus and Homo sapiens with 12 samples.

Results

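Olfactory receptor genes of chromosome 11 were examined for histone butyrylation in CCD841, a line of epithelial cells from normal human colon. Members were the protein-coding genes of chromosome 11 in the GENCODE annotation whose symbol is OR, digits, letters and digits (for example OR5P2). This gave 172 of the 1317 coding genes of the chromosome and 172 of the 400 such genes of the genome. The other 1145 coding genes of chromosome 11 were the comparison. The cells had been treated with 1 mM sodium butyrate overnight, and 4 CUT&Tag libraries were used, 2 for butyrylated lysine 18 of histone H3 (H3K18bu) and 2 for butyrylated lysine 12 of histone H4 (H4K12bu). No untreated CCD841 library and none with a control antibody was used here. Nothing in the labels ties the replicates to separate cultures, so their spread may be technical.

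Olfactory receptors are G protein-coupled receptors, each encoded by a single coding exon, and they form the largest gene family of mammals. An olfactory neuron expresses one receptor allele and leaves the rest closed, and in other tissues most receptor genes are not transcribed and lie in long AT-rich clusters packed into heterochromatin. Class I receptors, the families numbered from OR51 to OR56, resemble those of fish, and class II receptors are the remainder. Butyryl marks on histone tails are known mainly from open chromatin and gene starts. The receptors are labelled silent, but RNA of these cells was not analysed here, so whether any member was transcribed was not measured.

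CUT&Tag directs a transposase to an antibody-bound mark, and each library came as a list of peaks, called rows here. The lists held 299720 and 299691 rows for H3K18bu replicates 1 and 2 and 299445 and 299296 for H4K12bu replicates 1 and 2. Rows that shared a base were merged into regions. The pileup is the number of reads stacked at a summit, recovered from the fold and the p-value of the row. Its median was 15, 12, 15 and 7 in the order just given, so H4K12bu replicate 2 was the shallowest list. In that list 56.3% of rows passed a q of 0.05, against 100% in each of the other 3. The total number of reads is unknown from the lists.

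Marker genes were read at their starts as a check of the cell type. Of 11 epithelial markers, VIL1 (villin) had an H3K18bu region in both replicates, and KRT8 and KRT18, keratins whose start windows held the same row, had an H4K12bu region in both. Of 9 mesenchymal markers, FN1, TWIST2 and COL1A2 had such an H3K18bu region and COL1A2 also an H4K12bu region. The endothelial genes VWF and CDH5 (2 of 3) and the neuronal and olfactory genes STMN2 and GNAL (2 of 6) also had one for H3K18bu, and CDH5 for H4K12bu too. Rows at the start in the 4 libraries were counted at 1, 4, 2 and 4 of the 11 epithelial and at 5, 5, 2 and 3 of the 9 mesenchymal genes, where 41.3%, 45.5%, 28.4% and 26.4% of the coding genes of chromosome 11 that are not receptors had one. The defining markers EPCAM and CDH1 (epithelial), VIM (mesenchymal) and PTPRC (immune) had no row at the start in any library, and each had an H3K18bu region in both replicates inside its record.

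Stretches of 150 bases at 5 receptors with rows and at 2 receptors without are printed to show the bases under the leading rows beside those of bare starts. They are GRCh38, read in the direction of the gene, with CpG dinucleotides in capitals. The first 5 are centred on a summit of replicate 1, of H3K18bu for OR52W1 and OR10W1 and of H4K12bu for the other 3. OR52W1 had the highest pileup of all members, OR51M1 and OR56B4 had both marks, OR10W1 was led by H3K18bu and OR10S1 had only H4K12bu. OR4A16 and OR5AK2 are the first and last members of a cluster with no H3K18bu region, and their stretches are centred on the gene start.
OR52W1 (chr11:6199566-6199715, plus strand): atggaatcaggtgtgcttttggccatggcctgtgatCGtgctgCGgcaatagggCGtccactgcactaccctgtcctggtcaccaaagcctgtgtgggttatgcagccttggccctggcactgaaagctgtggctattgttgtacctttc
OR51M1 (chr11:5382704-5382853, plus strand): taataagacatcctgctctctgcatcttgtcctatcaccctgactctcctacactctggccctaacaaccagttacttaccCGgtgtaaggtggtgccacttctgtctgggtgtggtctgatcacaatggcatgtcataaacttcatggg
OR56B4 (chr11:6108023-6108172, plus strand): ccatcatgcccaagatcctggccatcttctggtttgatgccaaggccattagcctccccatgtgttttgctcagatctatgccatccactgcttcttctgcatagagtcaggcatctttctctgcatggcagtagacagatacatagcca
OR10W1 (chr11:58267522-58267671, minus strand): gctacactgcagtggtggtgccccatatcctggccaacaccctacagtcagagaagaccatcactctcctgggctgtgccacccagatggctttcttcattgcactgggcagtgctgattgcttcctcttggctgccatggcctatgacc
OR10S1 (chr11:123977063-123977212, minus strand): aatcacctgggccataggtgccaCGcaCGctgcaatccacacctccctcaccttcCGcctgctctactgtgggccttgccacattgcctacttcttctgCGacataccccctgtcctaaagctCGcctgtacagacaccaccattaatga
OR4A16 (chr11:55343126-55343275, plus strand): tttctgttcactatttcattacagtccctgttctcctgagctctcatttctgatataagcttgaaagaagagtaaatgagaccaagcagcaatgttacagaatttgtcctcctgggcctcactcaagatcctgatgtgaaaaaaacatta
OR5AK2 (chr11:56988839-56988988, plus strand): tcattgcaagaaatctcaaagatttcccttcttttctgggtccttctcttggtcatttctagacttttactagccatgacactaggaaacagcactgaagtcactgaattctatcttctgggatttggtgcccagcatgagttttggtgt
The stretches of OR52W1, OR56B4, OR10W1 and OR10S1 lay wholly in coding sequence, and that of OR51M1 lay upstream of the gene. Their GC was 55.3%, 49.3%, 56.7%, 56.0% and 48.7% in that order. The stretches at the starts of OR4A16 and OR5AK2 had a GC of 38.7% and 41.3% and no CpG. Those of OR56B4 and OR10W1 had no CpG either, while those of OR52W1, OR51M1 and OR10S1 had 3, 1 and 5.

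Receptor starts carried fewer rows than other gene starts, by a wide margin for H3K18bu and by little or nothing in the shallowest H4K12bu list. Within 1 kb of the start, 22 of 172 members (12.8%) had a row in H3K18bu replicate 1 against 41.3% of the other coding genes. In H3K18bu replicate 2 it was 26 members (15.1%) against 45.5%. In H4K12bu replicate 1 it was 25 members (14.5%) against 28.4%, and in replicate 2 42 members (24.4%) against 26.4%. The receptor share was lower in all 4 libraries, although in the last it was close to the background. The mean difference was -18.7 ± 13.4 percentage points (SD, 4 libraries; two-sided exact sign-flip test, p = 0.13, the smallest that 4 libraries allow). The test cannot reach 0.05, so these shares are a description. The window spans most of a typical receptor record, whose median is 1082.5 bases, but a small part of other records, whose median is 21466. A row at a receptor start may therefore lie over the coding exon. At OR10W1, for example, the H3K18bu summits lay 663 and 656 bases into the gene.

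The GC of the start window moved with this difference. The 2001 bases around receptor starts had a median GC of 39.0%, with members between 28.1% and 53.0%, against 55.3% at other coding genes, and a median of 12 CpG dinucleotides against 88. Among the 163 other coding genes whose start window had a GC of at most 44.7%, the 90th percentile of the members, 14.7%, 16.6%, 15.3% and 17.8% had a row at the start in the same order of libraries. Against those genes the mean difference was +0.61 percentage points, with a sign opposite to that against all other genes. Receptors were lower than these AT-rich genes in the first 3 libraries, by under 2 points each, and higher in the last.

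**Figure D1:**
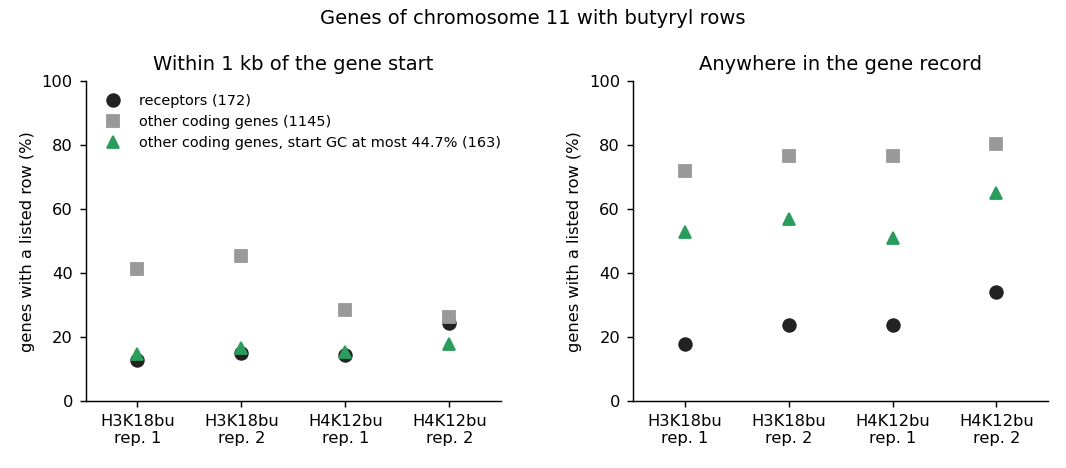
Percent of genes of chromosome 11 with a listed row within 1 kb of the start (left) or anywhere in the gene record (right), 1 point per library and gene group. Receptors (circles) lie near other coding genes with start GC of at most 44.7% (triangles) at the start, and below both comparison groups in the record.

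Over the whole gene record the gap was wider. A row lay in the record of 31 members (18%) against 71.9% of other coding genes in H3K18bu replicate 1, and of 41 (23.8%) against 76.6% in replicate 2. The values were 41 (23.8%) against 76.6% in H4K12bu replicate 1 and 59 (34.3%) against 80.3% in replicate 2. The mean difference was -51.4 ± 3.58 percentage points (SD, 4 libraries; exact sign-flip test, p = 0.13). Receptor records are short, with a median of 1082.5 bases against 21466 for the other genes. Against the 346 other coding genes with a record of at most 10 kb the mean difference was -22.8, against the 163 AT-rich genes it was -31.4, and over coding sequence alone it was -19.9.

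Regions present in both replicates were fewer at receptor starts than at all other gene starts for H3K18bu and close to that background for H4K12bu. For H3K18bu, 16 members (9.30%) had a shared region within 1 kb of the start against 31.9% of other coding genes. For H4K12bu, 19 members (11%) had one against 14.6%. Among the 163 AT-rich genes the shares were 10.4% and 8.59%, so the H3K18bu gap was about 1 percentage point and the H4K12bu order turned. Among the 50000 strongest regions of each library, 3 members had a shared start region for each mark. The share of other coding genes in those shorter lists is not given here, so this count has no background. In the record, 24 members had a shared H3K18bu region (14.0% against 61.3%) and 26 a shared H4K12bu region (15.1% against 63.7%). In all, 8 members (4.65%) had a shared start region for both marks, against 11.3% of other coding genes and 4.91% of the AT-rich ones. Another 8 had one for H3K18bu only, a smaller share than that of other coding genes, and 11 for H4K12bu only, a larger share. The order was the same against the AT-rich genes, and it was not tested. A row at the start in at least 1 of the 4 lists was found at 62 members (36.0%), at 61.5% of other coding genes and at 30.7% of the AT-rich ones. Of the 110 members without one, 82 had none in the record either.

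Among receptor starts with a row, the share with one in both replicates was near that of other genes, but the difference moved either way under other settings. Of the 30 members with a row in either H3K18bu replicate, 18 had one in both (60.0%), against 62.7% for other coding genes. Of the 47 with an H4K12bu row, 20 did (42.6%), against 42.5%. The mean difference over the 2 marks was -1.32 percentage points (exact sign-flip test, p = 1.00, smallest possible 0.5). It was -9.11 with a window of 3 kb, -10.8 among the 50000 strongest regions and 7.71 with rows of q below 0.05.

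Regions were more frequent just after receptor starts than just before them, although some rows crossed the start, as at OR52I1 and OR10G9, or lay upstream of it, as at OR51M1 and OR52N2. In the bin of 0.5 kb before the start, 4.07%, 5.23%, 3.49% and 6.40% of members had a region in the 4 libraries. In the bin of 0.5 kb after it the shares were 8.72%, 10.5%, 11.6% and 17.4%. At other coding genes the bins before and after the start were alike, at 28.8% and 30.9% in H3K18bu replicate 1 and at 13.6% and 15.3% in H4K12bu replicate 2. From 10 to 20 kb away, the mean share per bin for receptors had dropped to between 2.50% and 4.17%.

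**Figure D2:**
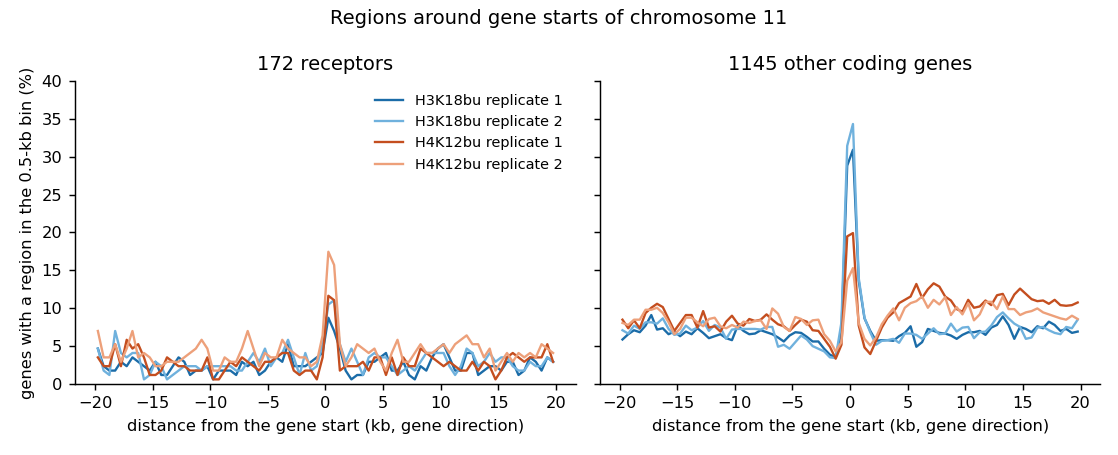
Percent of genes with a region in each bin of 0.5 kb, from 20 kb before to 20 kb after the gene start, in the direction of the gene, for receptors (left) and other coding genes (right), 1 line per library. Receptors peak in the 2 bins after the start, at 17.4% in H4K12bu replicate 2, while other genes peak on both sides of it, at up to 34.3% in H3K18bu replicate 2.

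Along the coding sequence, cut into 5 parts of equal length from start to stop, summits gathered in parts 2 and 3. Of the members, 171 have a single coding block, with a median length of 942 bases. Of the summits inside these blocks, 33 of 47 in H3K18bu replicate 1 lay in those 2 parts, 35 of 53 in replicate 2, 39 of 58 in H4K12bu replicate 1 and 37 of 62 in replicate 2, which are 40% of the length. Median GC was 45.6%, 47.3%, 47.8%, 47.3% and 43.9% from the first part to the last. Summits of 1 gene are not independent, so no test was made.

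Per base, receptor coding sequence was covered more than its surroundings and, in 3 of 4 libraries, more than the coding sequence of other genes. Regions covered 6.88%, 7.74%, 9.15% and 9.76% of the 163 kb of receptor coding sequence in the order of libraries used above. They covered 1.13%, 1.01%, 1.06% and 1.16% of the cluster bases outside receptors, their pseudogenes and other coding sequence, so the receptor exons were between 6.08 and 8.63 times as covered. Coding sequence of the other genes of chromosome 11 was covered at 3.80%, 3.63%, 9.71% and 5.21%. Receptor pseudogenes stood in between their intact relatives and the cluster, at 3.92%, 3.76%, 3.87% and 3.61%. GC ran in a similar order, 46.2% for receptor coding sequence, 44.5% for pseudogenes and 37.4% for the remaining cluster bases, but 54.2% for other coding sequence.

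Within bands of equal GC, receptor coding sequence was covered more than noncoding bases from 45% GC upwards, in every library. Coding sequence of other genes was not split by GC. In tiles of 300 bases with a GC of 45 to 50%, the cover of receptor coding sequence was 8.02%, 7.66%, 8.65% and 10.6%. It was 3.13%, 3.26%, 2.72% and 3.33% over other bases of the clusters and 3.81%, 3.36%, 3.14% and 2.62% over the rest of chromosome 11 outside coding sequence. At 50 to 55% GC, receptor tiles reached 13.6%, 15.3%, 18.8% and 18.5%, against between 5.86% and 7.55% over other cluster bases. At 35 to 40% GC, the 48 receptor tiles were covered at 1.74%, 1.02%, 0% and 0%. Cover was higher from one band to the next in all 3 kinds of sequence, except that of receptor tiles between 35 to 40% and 40 to 45% GC in H3K18bu replicate 1 (1.74% and 1.57%). Other cluster bases lay below the rest of the chromosome in both bands under 45% GC and above it at 50 to 55%. The share of bases that reads can be placed on uniquely was not compared between these tiles.

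**Figure D3:**
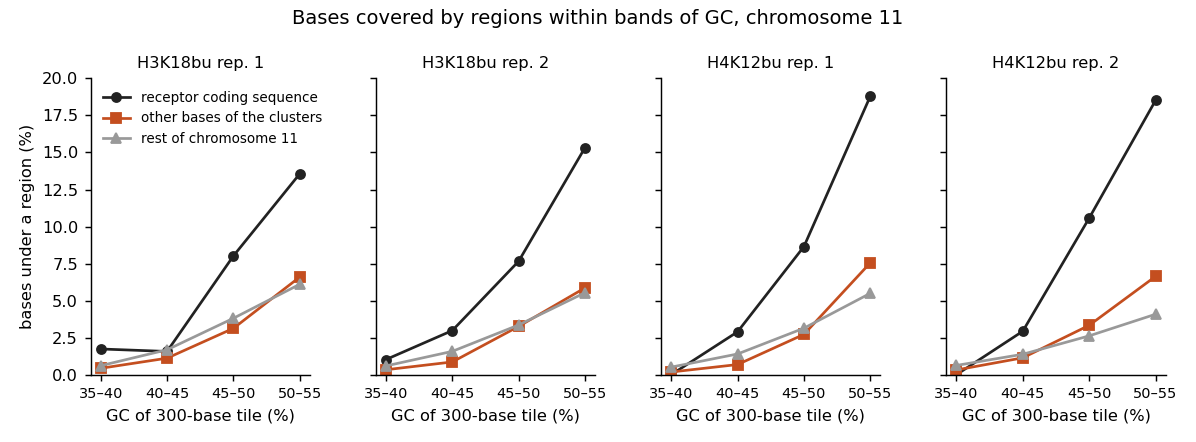
Percent of bases under a region, in 300-base tiles grouped by GC, 1 panel per library, for receptor coding sequence, other bases of the receptor clusters, and the rest of chromosome 11 outside coding sequence. Receptor coding sequence reaches between 13.6% and 18.8% in the highest band, while the other lines stay at or under 7.55%.

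Receptor genes lie in runs. A cluster was a run of at least 5 members with neighbours at most 200 kb apart, and 7 clusters held 161 members on 5.58 Mb, leaving 11 members outside. Regions were thinner in the clusters than in the rest of chromosome 11. H3K18bu had 44.5 regions per Mb in the clusters against 86.3 in the rest for replicate 1, and 47.9 against 92.2 for replicate 2. H4K12bu had 43.4 against 80.3 for replicate 1 and 77.3 against 106 for replicate 2. The mean log2 ratio was -0.81 ± 0.24 (SD, 4 libraries), a density 0.570 times that of the rest (exact sign-flip test, p = 0.13). Covered bases gave 1.43% against 2.58%, 1.32% against 2.35%, 1.41% against 2.42% and 1.51% against 1.83%, a mean log2 ratio of -0.68 ± 0.27 (p = 0.13 by the same exact test). In the bins of low GC described next, the log2 ratio of covered bases was -0.20. In bins of 100 kb with a GC of at most 40.8% in both compartments the log2 density ratio was -0.34, and without the cluster of OR4A16 to OR5AK2 it was -0.38.

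The 7 clusters were unlike each other. The class I cluster, chr11:4367263-6200186, ran from OR52B4 to OR52W1 and held all 55 class I members. It had 74.7, 74.2, 79.1 and 116 regions per Mb in the order of libraries, between 0.805 and 1.09 times the rest of the chromosome. The class II cluster chr11:55343201-56989843, from OR4A16 to OR5AK2, held 48 members and had no H3K18bu region in either replicate. H4K12bu gave 13 regions (7.89 per Mb) there in replicate 1 and 61 (37.0 per Mb) in replicate 2, and 45 of its 48 members had no row at the start or in the record in any list. The 3 that had one, OR5W2, OR8U1 and OR9G1, had it in H4K12bu replicate 2 alone, at a pileup of 5 each, and are named after their values were seen. Empty megabases also lay elsewhere. Of 133 bins of 1 Mb, 12 had no H3K18bu region in either replicate, and 2 of those 12 held a receptor start.

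The cluster chr11:58023881-58508105, from OR9Q1 to OR5B21, was rich in one mark and poor in the other. H3K18bu gave 103 and 107 regions per Mb in its 2 replicates, and H4K12bu gave 24.8 and 26.8. Both H3K18bu values lay above the rest of the chromosome and both H4K12bu values far below it. The cluster chr11:59358895-59713845, from OR5AN1 to OR10V1, went the other way, with H3K18bu at 39.4 and 47.9 and H4K12bu at 90.2 and 110. It also holds OSBP, an oxysterol-binding protein, and PATL1, a factor of mRNA decay. None of its 8 members had a shared start region for either mark.

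The remaining clusters had fewer regions per Mb than the rest of the chromosome in every library, except that of OR2AG2 to OR2D3 in H4K12bu replicate 2 (1.21 times the rest). The cluster chr11:123753580-124582942, from OR6X1 to OR8A1, had 45.8, 51.8, 37.4 and 82.0 regions per Mb. The 8 members from OR2AG2 to OR2D3 (chr11:6765626-6921994) had 25.6, 51.2, 32.0 and 128, and the 7 from OR4B1 to OR4A47 (chr11:48216810-48489722) had 18.3, 40.3, 14.7 and 66.0. The last 2 clusters rest on few regions, between 4 and 20 per library, and had no member with a shared start region.

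**Figure D4:**
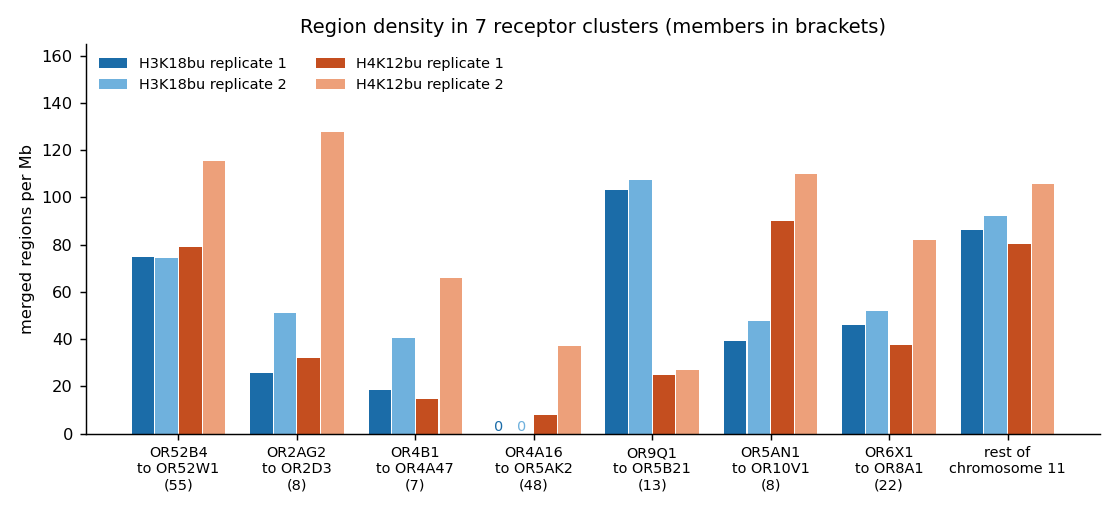
Merged regions per Mb in each receptor cluster and in the rest of chromosome 11, 1 bar per library, with the number of members in brackets. The cluster of OR4A16 to OR5AK2 has 0 H3K18bu regions, and that of OR9Q1 to OR5B21 has over 100 per Mb for H3K18bu and under 27 for H4K12bu.

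Class I members had rows more often than class II members in all 4 libraries. At the start, 13, 15, 20 and 28 of 55 class I members had a row in the 4 libraries (23.6%, 27.3%, 36.4% and 50.9%), against 9, 11, 5 and 14 of 117 class II members (7.69%, 9.40%, 4.27% and 12.0%). For H4K12bu the class I shares lay above those of the other coding genes, and for H3K18bu below. Class I starts had a median GC of 41.1% and class II starts 37.8%. A shared H3K18bu start region was found at 11 class I and 5 class II members, and a shared H4K12bu one at 14 and 5. All class I members lie in 1 cluster, so class and locus cannot be told apart.

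Regions inside the clusters had lower pileups than elsewhere, and similar folds over their local background. The median H3K18bu pileup was 12 against 16 in replicate 1 and 9 against 12 in replicate 2. That of H4K12bu was 11 against 15 and 6 against 7. The mean difference was -3.00 ± 1.41 reads (SD, 4 libraries; exact sign-flip test, p = 0.13). In the bins of low GC the mean difference was -0.75, with medians of 13 and 13 in H3K18bu replicate 1. The local background that the peak caller used was also lower in the clusters, with medians of 1.90 against 3.02, 1.31 against 2.25, 1.64 against 3.08 and 0.788 against 1.11 reads. The median fold over that background was 4.49 against 4.16, 4.07 against 3.95, 4.09 against 3.93 and 3.36 against 3.36. A region in the clusters overlapped a region of the other replicate in 57.3% of cases against 55.9%, 51.7% against 53.9%, 52.9% against 44.4% and 33.9% against 38.9%. The mean difference in sharing was +0.68 ± 5.84 percentage points (exact sign-flip test, p = 0.875), smaller than the spread between libraries. The 2 values of a mark rest on the same overlaps, so the 4 values are not independent, and this SD and p are a description. By mark the difference was -0.406 for H3K18bu and 1.77 for H4K12bu. The mean difference in sharing was 6.95 over bases outside every annotated gene and 6.22 with a pileup of at least 10. The other replicate covered between 1.32% and 1.51% of cluster bases.

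OR52W1, at chr11:6199224-6200186 on the plus strand and the last gene of the class I cluster, led all members. Its H3K18bu pileups were 66 and 52 and its H4K12bu pileups 26 and 16, with 95% Poisson intervals of 51.0 to 84.0, 38.8 to 68.2, 17.0 to 38.1 and 9.15 to 26.0, which cover counting error only. The 4 summits lay between 411 and 417 bases into the gene. The nearest start of another coding gene, C11orf42, was 6.33 kb away. The next highest pileup at a start was 27, at OR51D1.

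The other members with both marks at the start were all class I. OR51D1 (chr11:4637477-4643060) had pileups of 27, 14, 14 and 7 in the order of libraries. Its neighbour OR51E1 (chr11:4643420-4655488), which is also expressed in prostate, had 23, 15, 12 and 7. OR51M1 (chr11:5383812-5393263) had 16, 15, 14 and 9, and OR51S1 (chr11:4848237-4849208) had 15, 8, 13 and 6. The values of a member are those of the highest row in each list and need not come from 1 region. At OR51M1 the summits lay at 418, -1019, -1033 and -1025 bases from the start, so all but the first were outside the window that their rows overlapped. OR52I1 (chr11:4594039-4595013) had 13, 8, 17 and 9, and OR52N2 (chr11:5808924-5821483) had 14, 7, 11 and 7. OR56B4 (chr11:6107684-6108835) had 12, 10, 11 and 6. Within each mark, replicate 2 was the lower in all 8 members, as it was in the median of all rows.

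Members with H3K18bu only were found in 4 places. In the cluster of OR9Q1 to OR5B21, OR10W1 (chr11:58266792-58268260) had H3K18bu pileups of 23 and 14, no row in H4K12bu replicate 1 and 5 in replicate 2. OR5B17 (chr11:58358124-58359069) had 15 and 14 and no H4K12bu row. OR2AT4 (chr11:75081753-75096876), a receptor known from skin keratinocytes, stands outside every cluster and had 18 and 17 and no H4K12bu row, and an annotated gene of another kind also starts within 1 kb of it. OR51T1 (chr11:4881819-4882883) had 13 and 11 for H3K18bu and 9 in H4K12bu replicate 1. The other 4 of these 8 members had H3K18bu pileups between 7 and 15.

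Members with H4K12bu only lay in the class I cluster (6) and in the cluster of OR6X1 to OR8A1 (5). OR10S1 (chr11:123976661-123977781) had H4K12bu pileups of 16 and 10 and OR10G9 (chr11:124023013-124023948) 13 and 7. OR4D5 (chr11:123939617-123940573) had 10 and 8, at rows just past the end of the gene. None of these 3 had an H3K18bu row at the start. OR56A5 (chr11:5967553-5968494) had 9 and 8, and OR56A3 (chr11:5938751-5951347) 9 and 7, but the start of OR56A3 lies 0.132 kb from that of TRIM5, so its row belongs to both windows. Of all 172 start windows, 6 held the start of a gene that is not a receptor.

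**Figure D5:**
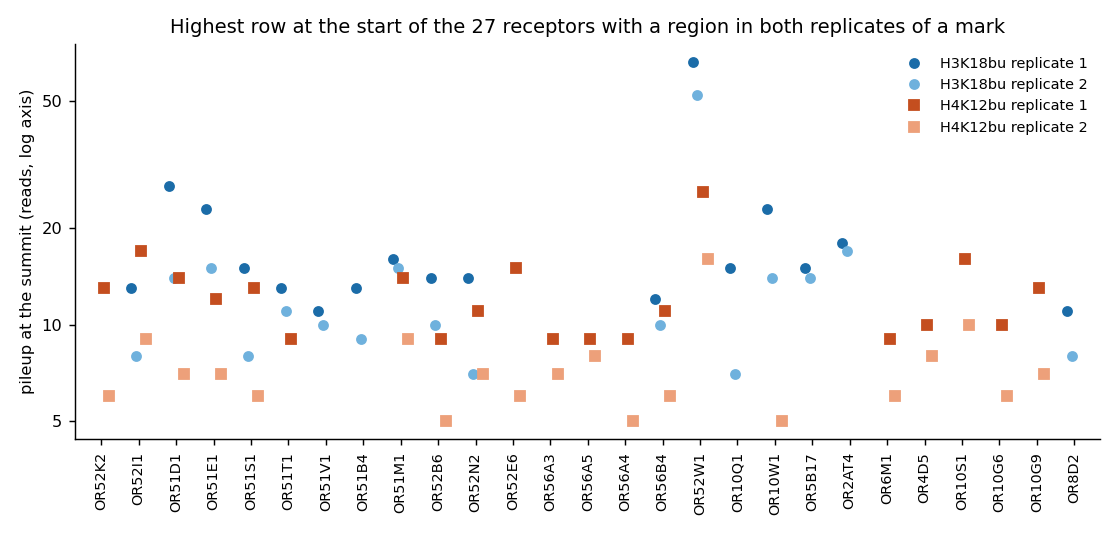
Pileup at the summit (reads, log axis) of the highest row that overlaps the window of 1 kb on each side of the start, 1 point per library. Shown in genome order are the 27 receptors with a region in both replicates of a mark. A summit may lie outside the window, and a library with no row has no point. OR52W1 stands above the others at 66 and 52 for H3K18bu, and most H4K12bu replicate 2 points lie under 10.

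Some receptors had rows only deep in long records. The record of OR51B5, with 202209 bases (chr11:5303444-5505652), overlaps the long records of the globin genes HBG2 and HBE1. This receptor had no row at the start and pileups of 33, 36, 19 and 9 inside. OR9Q1, with 157736 bases (chr11:58023881-58181616), had 24, 19, 11 and 7 inside and none at the start. OR8D1 (chr11:124302831-124315099) had 17, 18, 9 and 5. OR51E2 (chr11:4680171-4697854), a receptor for acetate and propionate that is also expressed in prostate, had 12, 9 and 11 in the first 3 libraries and none in H4K12bu replicate 2. OR8A1 (chr11:124566660-124582942) had 9, 7 and 5, with no row in H4K12bu replicate 1. These records include transcripts far longer than a receptor exon, so their rows may lie far from any receptor coding base.

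Members outside the clusters were mostly bare. Of 11, OR5P2, OR5P3, OR10A6, OR4C13, OR4C12, OR4C45, OR4C46, OR4A8 and OR4A5 had no row at the start or in the record in any list. OR10A3 had H3K18bu pileups of 13 and 9 in its record, and OR2AT4 is described above. Start windows of 5 of the bare genes, OR4C13, OR4C12, OR4C46, OR4A8 and OR4A5, had under 90% of their 50-base words once in the genome. Over all members, 21 start windows were below that share, and 5 of them had a row.

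Other coding genes inside the clusters were read in the same way. Of the 23 listed here, which are not all of them, 10, 10, 9 and 9 had a row at the start in the 4 libraries. Among all other coding genes of chromosome 11, 41.3%, 45.5%, 28.4% and 26.4% had one. The H3K18bu counts lay near those shares and the H4K12bu counts above them, which was not tested. Most of the 23 lie in the class I cluster, where 13, 15, 20 and 28 of 55 receptors had a row at the start. A shared H3K18bu region was at the starts of 9 of the 23, against 31.9% of other coding genes. A shared H4K12bu region was at 6, against 14.6%. TRIM68, a ubiquitin ligase, had pileups of 28, 17, 23 and 11, and TRIM21, a cytosolic antibody receptor and ubiquitin ligase, 17, 19, 13 and 7. OSBP had 14, 11, 11 and 9 and PATL1 13, 9, 12 and 5. TRIM22, which interferon induces, had 16 and 12 for H3K18bu and 6 in H4K12bu replicate 2. VWA5A had 11 and 10 for H3K18bu and no H4K12bu row. At the start, TRIM34 had only H4K12bu rows, at 12 and 10, and so had TRIM5, which blocks retroviral capsids, at 9 and 7. In their records both also had an H3K18bu region in both replicates. An unnamed coding gene, ENSG00000284931, had 31, 14, 12 and 5.

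The 5 beta-globin genes are erythroid genes enclosed by class I receptors. At the start, 2, 1, 1 and 0 of them had a row in the 4 libraries, against 41.3%, 45.5%, 28.4% and 26.4% of other coding genes. More had a row in the record, as was also so for other coding genes. Within 1 kb of the start, HBD (delta-globin) had pileups of 14 and 11 for H3K18bu, 10 in H4K12bu replicate 1 and none in replicate 2. HBG1 had 18 at the start in H3K18bu replicate 1 only. HBB, HBG2 and HBE1 had no row at the start in any list. In the record, 5, 5, 4 and 4 of the 5 genes had a row in the 4 libraries, where 71.9% to 80.3% of other coding genes had one. All 5 had an H3K18bu region and 3 an H4K12bu region in both replicates, against 61.3% and 63.7% of other coding genes. The records of HBG2 and HBE1 run on through the class I cluster, much as that of OR51B5 does, so their rows may lie far from any globin gene.

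Distance to the nearest start of another coding gene gave no even trend. Of 15 members within 20 kb, 4, 5, 4 and 4 had a start row in the 4 libraries. Of 66 members at 20 to 100 kb it was 5, 7, 13 and 27, and of 91 members farther away 13, 14, 8 and 11. The H4K12bu replicates were thus higher at the middle distance than at the far one, and the H3K18bu replicates were not.

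The mark difference at receptor starts was not larger than its spread. The mean of the H4K12bu replicates exceeded that of the H3K18bu replicates by 5.52 percentage points (exact permutation test of 2 against 2, p = 0.667, smallest possible 0.33). Without H4K12bu replicate 2 the difference was 0.581, and with rows of a pileup of at least 10 it was -3.78.

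Receptors of other chromosomes had still fewer rows. Of 228, 7.89%, 9.65%, 7.89% and 14.9% had a row at the start, against 40.8%, 46.4%, 28.0% and 27.8% of the other coding genes there. Of these receptors, 11 (4.82%) had a shared start region of H3K18bu and 9 (3.95%) one of H4K12bu, against 31.3% and 14.7% of the other coding genes there. The 194 receptor pseudogenes of chromosome 11 had a row at the start in 11.3%, 16.0%, 11.9% and 17.5% of cases, near the values of the intact genes in the first 3 libraries.

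Genes that work with the receptors were read in the same way. Of 22 genes of olfactory signalling and receptor choice, 10, 9, 4 and 6 had a row at the start in the 4 libraries, with 7 shared for H3K18bu and 2 for H4K12bu. These counts are near or under the shares of other coding genes given above, so nothing sets the list apart. CNGA4, a subunit of the olfactory cation channel and one of 2 of these genes on chromosome 11, had 36, 31, 21 and 7. OMP, the marker of mature olfactory neurons and the other, had a row of pileup 24 in H4K12bu replicate 1 and none elsewhere.

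Other families of chromosome 11 with restricted expression were read beside the shares of other coding genes, which were 41.3%, 45.5%, 28.4% and 26.4% in the order of libraries. Of 11 keratin-associated KRTAP5 genes, 7 and 5 had an H3K18bu row at the start in replicates 1 and 2, and 3 and 0 an H4K12bu row. Of 16 MS4A genes, 2 and 3 had an H3K18bu row and 3 and 5 an H4K12bu row. Of 8 MRGPR genes, 2 and 1 had an H3K18bu row and none an H4K12bu row. No TAS2R gene lies on the chromosome. The 6 ribosomal protein genes of chromosome 11, used in every cell, had a row at the start in 1, 4, 2 and 1 cases. The MRGPR counts lay under the shares of other coding genes in every library, and the MS4A counts did so for H3K18bu. Those of the KRTAP5 and ribosomal protein genes lay on both sides. The families are small and were not tested.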

How the data were processed

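CUT&Tag was performed on CCD841 cells treated with 1 mM sodium butyrate, with 2 replicates for each of H3K18bu and H4K12bu. The authors aligned reads with Bowtie2 and called peaks in each library with MACS2 in the ENCODE ATAC-seq pipeline. The submitters' processing notes name Bowtie2 2.3.1, MACS2 2.1.0, cutadapt 1.9.1 and bcl2fastq 2.17.1 and the build hg38 (GRCh38). The deposited lists give, for each peak, the fold over local background (a ratio) and −log10 of the p-value and q-value. They are filtered at p of 0.01 and limited to 300000 rows, so weak rows are missing and lists of unequal depth have similar lengths.

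From these lists, a whole pileup and a background were solved for each row from fold and −log10 p (at least 99.9997% of rows within 0.01), and overlaps of at least 1 base with GENCODE 44 records were counted. Coordinates are 1-based. The solver, the 50-base word counts and the interval code were tested on simulated data. Exact sign-flip and permutation tests were run over libraries (Python 3.11.15, numpy 2.4.6, pandas 2.3.3, scipy 1.17.1). The authors give only an average number of uniquely mapped reads per sample, so the depth of each library is not known here. Poisson intervals cover counting error only. A gene was taken as having a row if any listed row overlapped it. Named members were, for each mark, the up to 8 whose shared start region had the highest lower −log10 p, those with both marks, the 3 others with rows in most libraries, the 4 with the longest records and those outside clusters. Other coding genes in clusters with a shared start region, the globins, OMP, CNGA4 and markers with a shared start region were also named. The members, lists and tests were chosen with earlier results of these data known. The GC tiles, coding cover, summit positions, profile around starts, class split and distance groups were added after values were seen. Alternatives are given in the closing section. The 8 mouse libraries of the series were not used, and 2 genes that the naming rule selects are not reported here.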

Additional observations from a re-analysis of the deposited data

Results flagged for a closer look

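In 2 clusters the marks lay on opposite sides of the rest of chromosome 11 in every library. Regions per Mb in the cluster of OR9Q1 to OR5B21 were 1.20 and 1.16 times those of the rest for H3K18bu replicates 1 and 2 and 0.309 and 0.254 times for H4K12bu. In the cluster of OR5AN1 to OR10V1 they were 0.457 and 0.519 times for H3K18bu and 1.12 and 1.04 times for H4K12bu. The difference between the marks was not tested, and with 2 libraries a mark no permutation could give a p under 0.33. The first cluster rests on 50 and 52 H3K18bu and 12 and 13 H4K12bu regions, the second on 14 and 17 and on 32 and 39.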

How the results depend on the processing

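Of 144 alternative values, 11 turned the direction and 7 counts moved by over 1.5 times. The other 126 kept the sign of a difference, whatever its size, or a count within 1.5 times; 15 alternatives were chosen after seeing the data. Against other coding genes with start GC up to that of 90% of members, the difference in start share was +0.61 percentage points in place of -18.7. It was -9.36 among the 50000 strongest regions and -11.2 against other genes of at most 10 kb. The density ratio lay between -1.60 and -0.34 (log2). The covered-base ratio was -0.20 in bins of low GC and -0.25 without the cluster of OR4A16 to OR5AK2, where H4K12bu replicate 2 turned (1.87% in clusters against 1.83%). The difference in sharing of genes was 7.71 with rows of q below 0.05, 1.49 with q below 0.01 and 6.33 against other genes of at most 10 kb, but -9.11 with a window of 3 kb, -10.8 among the 50000 strongest regions and -15.4 for receptors of other chromosomes. That in sharing of regions was 6.95 outside every annotated gene and 6.22 with a pileup of at least 10. The mark difference at starts was 0.291 with q below 0.05, -2.91 with q below 0.01 and -3.78 with a pileup of at least 10. The peak height difference was +0.153 when fold replaced pileup and -0.75 in bins of low GC. Among the 50000 strongest regions of each library, 3 members had a shared start region for H3K18bu and 3 for H4K12bu. The matching shares of other coding genes are not given here. The cause of these changes was not tested.

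Without 1 library, the differences ranged from -24.3 to -14.8 (start share), -53.1 to -50.5 (body share), 0.581 to 10.5 (marks) and -3.67 to -2.67 (height). The log2 ratios ranged from -0.93 to -0.76 (density) and -0.82 to -0.63 (cover). Sharing needs both replicates of a mark, so there a whole mark was left out. The difference in sharing of genes was -2.68 for H3K18bu alone and 0.0532 for H4K12bu alone. That in sharing of regions was -0.406 for H3K18bu alone and 1.77 for H4K12bu alone. With 1 replicate left, members with a start region numbered 22 to 26 for H3K18bu and 25 to 42 for H4K12bu.

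With the replicate number as a block, the start share difference was -18.7, that in body share -51.4, the mark difference 5.52 and the density ratio -0.81 (exact sign-flip test over 2 pairs, p = 0.5, the smallest possible). Over 133 bins of 1 Mb, the deviations of same-numbered libraries from the mean of their mark (log2 region counts) correlated at 0.0569. Whether such libraries share a culture or a batch was not tested. No exact test here could pass 0.05, and the lists hide rows under the p threshold, so a gene without a row may still carry the mark.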
